A study of Homo sapiens with 6 samples.

Results

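The metallothionein family was followed in SK-Hep1 cells after knockdown of TARDBP, through 7 probes of a bead array that carries 47231 probes. The 7 probes were chosen by their identifiers and stand for MT2A (ILMN_1686664), MT1X (ILMN_1775170), MT1E (ILMN_2173611), MT1F (ILMN_1718766), MT1G (ILMN_1715401), MT1A (ILMN_1691156) and MT1M (ILMN_1657435). The rule itself uses no measured value. The platform annotation names 6 of them in the same way. It does not list ILMN_1691156, whose name MT1A comes from the list of members alone. SK-Hep1 is an established line labelled as hepatocellular carcinoma, and 3 samples labelled siLuc (control) were compared with 3 labelled siTARDBP (knockdown), with 1 array for each sample. No other allele, agent or time is given in the labels, and all samples are of this single line. Nothing in the labels states that the samples of a group were cultured separately. The p-values therefore describe the spread between these arrays, part or all of which may be technical.

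Metallothioneins are short, cysteine-rich proteins that hold zinc and copper, and also cadmium, through their thiol groups, and so buffer free metal in the cell. Their genes respond to zinc through MTF1, a zinc-finger transcription factor that binds short metal response elements in front of them, and MT2A also responds to glucocorticoids. The liver is a major site of metallothionein synthesis, and MT1G and MT1M have been described as low in liver cancer tissue. TARDBP encodes TDP-43, a protein that binds RNA and DNA and takes part in splicing and RNA stability.

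In RefSeq's gene order the 7 genes lie on chromosome 16, in a run that begins with MT4 and ends with MT1X. That run holds 16 metallothionein genes and pseudogenes. RefSeq promoter sequence was at hand for 2 of the 7 members, MT2A and MT1X, and both are shown because metal response elements link the family to MTF1. Each is the 250 bases before the annotated gene start on the plus strand of GRCh38.p14, chr16:56608334-56608583 for MT2A and chr16:56682220-56682469 for MT1X. Capitals mark the core of the metal response element, searched as TGCACNC or TGCGCNC on both strands.
MT2A: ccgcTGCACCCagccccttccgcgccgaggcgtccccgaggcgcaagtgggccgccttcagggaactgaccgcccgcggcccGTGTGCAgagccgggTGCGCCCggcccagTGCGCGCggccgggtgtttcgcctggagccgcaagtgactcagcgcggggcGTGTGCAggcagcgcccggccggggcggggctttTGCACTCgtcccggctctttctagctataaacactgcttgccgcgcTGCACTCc
MT1X: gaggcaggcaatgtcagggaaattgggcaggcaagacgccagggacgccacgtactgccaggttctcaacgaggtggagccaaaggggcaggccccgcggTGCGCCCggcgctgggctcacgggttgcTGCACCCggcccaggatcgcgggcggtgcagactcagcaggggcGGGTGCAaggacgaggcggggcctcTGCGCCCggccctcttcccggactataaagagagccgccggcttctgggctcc

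The MT2A sequence holds 7 matches to the core, 5 on the gene's strand and 2 on the other. The MT1X sequence holds 4, with 3 on the gene's strand and 1 on the other. At least 1 match occurs in 24.8% of the 35116 promoters of the same length, at least 4 in 0.37% and at least 7 in 0.0313%. Both sequences also contain the letters TATAAA on the gene's strand, as 6.8% of promoters do. In MT2A they lie 29 to 24 bases before the start, and in MT1X 30 to 25 bases before it. Among the other genes of the run, MT1H had 8 matches to the core, and MT1B and MT4 had 3 each. The promoter of SLC30A1, a zinc exporter that is a known MTF1 target, had 1 match. A match describes the letters and does not show binding.

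**Figure D1:**
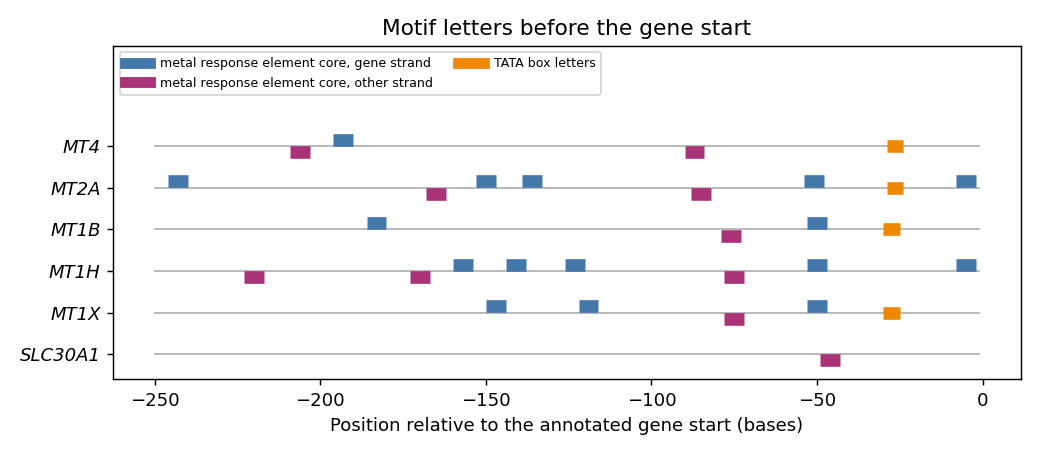
Positions of motif letters in the 250 bases before the annotated start of 5 metallothionein genes and SLC30A1; the horizontal axis is the position in bases relative to the start. Blue and purple blocks are metal response element cores on the gene's strand and the other strand, and orange blocks are TATAAA. MT2A carries 7 cores, MT1X 4 and SLC30A1 1.

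The arrays were checked before the family was compared. A background level was estimated for each array as the intensity under which 95% of a symmetric background would lie, and it ran from 81.7 to 128 units. Probes were tested if 3 or more of the 6 arrays exceeded that level, which kept 15201 of them. The arrays numbered 2 of each group had a dimmer background, with modes of 59.1 and 59.5 units against 70.9 to 75.9 on the other 4. The TARDBP probe read 265, 214 and 203 units in siLuc and 136, 84.0 and 96.5 in siTARDBP. It fell by 0.98 on the log2 scale of normalised intensity (SE 0.11, 1.98-fold lower, limma adjusted p = 1.5e-05), and was above background on 2 of the 3 siTARDBP arrays. ILMN_3200717, a probe of the TARDBP pseudogene TARDBPP3, fell by 2.23 (SE 0.093, limma adjusted p = 3.1e-10), and it too was above background on 2 of the 3 siTARDBP arrays. For both probes the size of the fall is limited by the background. Whether ILMN_3200717 also reads TARDBP transcript was not tested. Another TARDBPP3 probe, ILMN_3285346, had means of 91.6 units in siLuc and 61.6 in siTARDBP. It exceeded background on 1 array and was not tested. Liver markers were mostly dim, since of 7 hepatocyte genes with a probe only ALB and SERPINA1 exceeded background on any array, and APOA1, APOB, TTR, TF and FGB did not. The ALB probe ILMN_1782939 exceeded it on 5 arrays, with means of 124 and 123 units close to background, and ILMN_1682763 on 0. For SERPINA1, ILMN_2338452 and ILMN_2404154 exceeded it on 6 arrays, and ILMN_1764980 and ILMN_2256050 on 0. None of the 5 endothelial genes (PECAM1, CDH5, VWF, TEK and KDR) exceeded background on any array. Of 4 mesenchymal genes, VIM and SPARC were above background on all 6 arrays, the COL1A1 probe on 2, and the COL1A2 probes on 0 and 1. The label of the line as hepatocellular therefore has few of the hepatocyte markers tested behind it.

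Knockdown of TARDBP left no metallothionein probe past the threshold. Of the 7 members, 6 were above background on all 6 arrays and 1, MT1M, was below it on all 6. Among the 6 tested, 0 reached an adjusted p under 0.05 (limma, with the Benjamini-Hochberg method over all tested probes). Of all 15201 tested probes 11.2% did, 5.84% as higher and 5.32% as lower in siTARDBP. These were 888 and 808 probes, against 282 and 734 with median scaling over the whole array. The unadjusted p was also above 0.05 for all 6, the smallest being 0.373 in the limma fit across all probes, whereas 25.4% of all tested probes were under it. The 3 arrays of each group overlapped after normalisation for all 6, while they lay apart for 29.4% of tested probes.

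MT2A encodes the most widely expressed metallothionein. Its probe read 21727, 22022 and 20442 units in siLuc and 20359, 20576 and 20916 in siTARDBP. The groups overlap, and the probe was among the brightest on every array, between rank 5 and rank 31 of 47231. The log2 difference, siTARDBP minus siLuc, was -0.01 (SE 0.093), with a 95% interval from -0.21 to 0.19 and a limma adjusted p of 0.959. In linear terms the interval ran from 0.866-fold to 1.14-fold. The brightest probe of each array read 23102 to 26258 units, and quantile normalisation sets the level of a probe by its rank on the array. Whether this limits the difference read for MT2A was not tested.

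The probe named MT1A read 15614, 15744 and 15703 units in siLuc and 15517, 15101 and 14720 in siTARDBP. All 3 siTARDBP arrays were below all 3 siLuc arrays before normalisation, and the groups overlapped after it. The normalised difference was 0.03 (SE 0.095, 95% interval -0.17 to 0.23, limma adjusted p = 0.893). This probe was also bright, between rank 150 and rank 219 of 47231. Whether normalisation by rank limits the difference read for MT1A was not tested.

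MT1E was read by 2 probes. The member probe read 8354, 7503 and 6418 units in siLuc and 7706, 6663 and 6102 in siTARDBP, and the groups overlap. Its normalised difference was 0.0013 on the log2 scale (SE 0.12, 95% interval -0.24 to 0.25, limma adjusted p = 0.997). The siLuc arrays spread more than the siTARDBP arrays for this probe, with a range of 0.48 against 0.12 on the log2 scale. The other MT1E probe, ILMN_1718968, had means of 90.1 and 93.1 units in siLuc and siTARDBP, exceeded background on 1 array and was not tested.

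MT1X, a zinc- and copper-binding member at the far end of the run, read 1956, 1752 and 1715 units in siLuc and 1837, 1609 and 1648 in siTARDBP. The groups overlap on the raw scale and after normalisation. The normalised difference of 0.09 (SE 0.10, 95% interval -0.12 to 0.31, limma adjusted p = 0.617) was the highest of the 6.

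MT1G read 1988, 1526 and 1664 units in siLuc and 1717, 1154 and 1465 in siTARDBP. Array 2 was the lowest of its group in both cases, and the groups overlap. The normalised difference was -0.09 (SE 0.099, 95% interval -0.30 to 0.12, limma adjusted p = 0.623).

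MT1F read 305, 301 and 284 units in siLuc and 324, 232 and 219 in siTARDBP. The siTARDBP arrays held both the highest and the lowest values. Its difference of -0.10 (SE 0.10, 95% interval -0.31 to 0.12, limma adjusted p = 0.617) was the lowest of the 6. MT1M read 42.1, 43.1 and 46.5 units in siLuc and 42.4, 46.7 and 52.1 in siTARDBP, below the background level throughout, so no difference is given for it. The probes were not set against one another by brightness, which depends on the probe as well as on its transcript. Close sequence similarity among these genes means that a probe may also read a relative of its target, which was not tested.

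**Figure D2:**
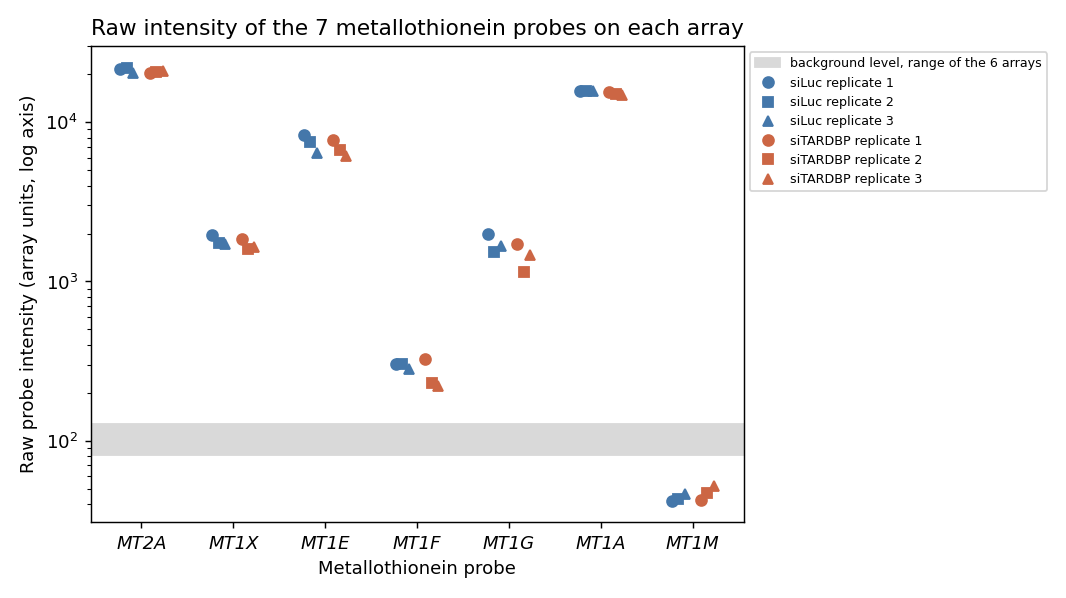
Raw intensity of each of the 7 metallothionein probes on the 6 arrays, on a log axis in array units; blue is siLuc, orange is siTARDBP, the symbol gives the replicate, and the grey band spans the background levels of the 6 arrays (81.7 to 128). All probes but MT1M lie above the band, and for each of the 6 the colours sit close together.

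Set side by side, 3 of the 6 tested members had a positive and 3 a negative difference, with a median of -0.0050 on the log2 scale against -0.0039 over all tested probes. The median absolute difference was 0.059 for the members and 0.12 over all tested probes, and the median standard error was 0.10 for both. The 6 intervals together ran from 0.804-fold to 1.24-fold, so a change beyond those limits was outside the interval of every tested member on this normalised scale, which compresses fold changes. Within the arrays numbered 2, which share the dim background, the difference was below 0 for 5 of the 6 and ran from -0.23 for MT1G to 0.05 for MT1X. Within the other 4 arrays it ran from -0.04 for MT1F to 0.12 for MT1X. The signs of MT2A, MT1X, MT1E and MT1A changed with the processing, so no direction is given for them.

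**Figure D3:**
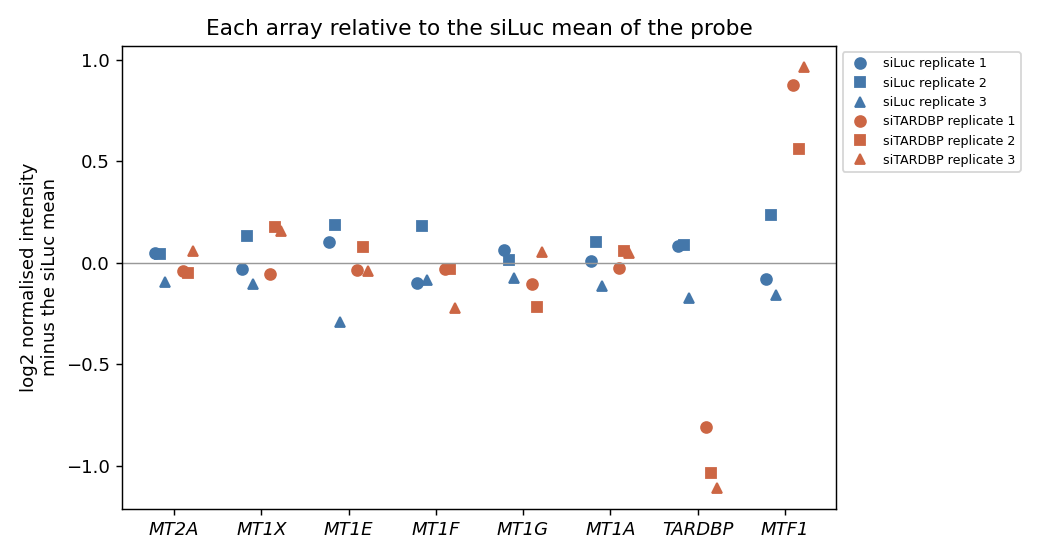
Normalised log2 intensity of each array minus the siLuc mean of the same probe, for the 6 tested metallothionein probes, TARDBP and MTF1; colours and symbols give group and replicate. The groups overlap for the 6 metallothioneins, although some siTARDBP values of MT2A, MT1X, MT1F and MT1G lie outside the siLuc range. For MT1X, siTARDBP replicates 2 and 3 (0.18 and 0.16) lie above the highest siLuc value (0.13). For MT1G, siTARDBP replicates 1 and 2 (-0.10 and -0.22) lie below the lowest siLuc value (-0.08). All siTARDBP arrays lie below the siLuc arrays for TARDBP and above them for MTF1.

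**Figure D4:**
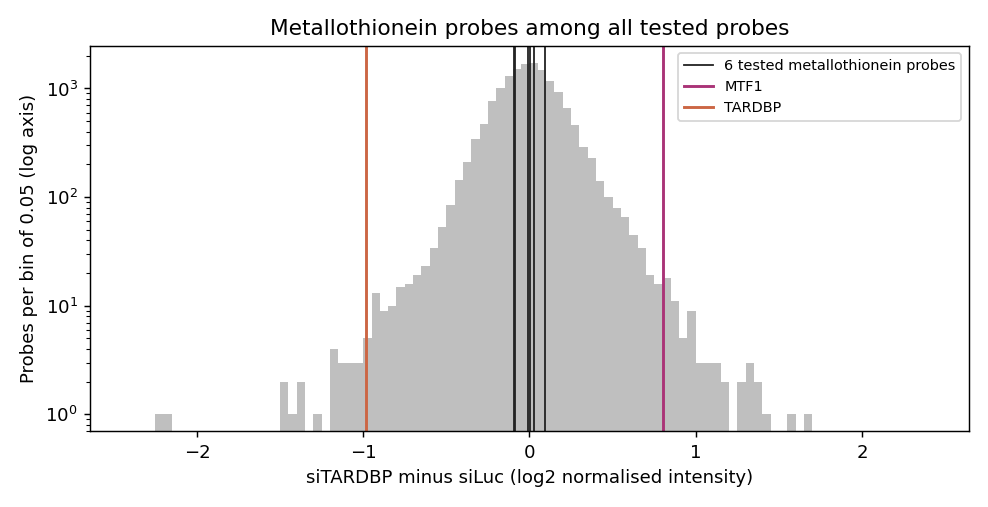
Histogram of the log2 difference, siTARDBP minus siLuc, over the 15201 tested probes in bins of 0.05, with the number of probes on a log axis. The vertical lines of the 6 metallothionein probes stand between -0.10 and 0.09, TARDBP stands at -0.98 and MTF1 at 0.80.

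The other metallothioneins with a probe named by the platform annotation gave no measurable signal. The list held 10 genes, of which MT1B, MT1H, MT1L, MT1IP, MT3 and MT4 had a named probe, 7 probes in all. The annotation does not list 17110 probes of the array, so any unlisted probe of these or the remaining genes was not read. Not a single one of the 7 exceeded background on any array, and their summed raw intensity was 376 to 480 units in siLuc and 386 to 456 in siTARDBP. MT3 is known as the brain form and MT4 as the form of stratified epithelium.

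MTF1, the metal sensor that drives metallothionein genes, rose. Its probe read 295, 299 and 254 units in siLuc and 597, 338 and 481 in siTARDBP, so that all siTARDBP arrays were above all siLuc arrays. The normalised difference was 0.80 on the log2 scale (SE 0.12, 1.74-fold, limma adjusted p = 3.7e-04), with a 95% interval from 0.54 to 1.06. Its lower end lies above the upper end of every metallothionein interval, the highest of which was 0.31 for MT1X. This contrast between probes of unlike brightness was not tested, and the transcript level of MTF1 does not show the activity of its protein. The size of the MTF1 difference varied between background classes, with 0.33 within the arrays numbered 2 and 1.04 within the other 4. SLC30A1, the plasma membrane zinc exporter that MTF1 also activates, did not pass the threshold on either of its 2 probes, with differences of 0.19 (SE 0.11, 95% interval -0.05 to 0.42, limma adjusted p = 0.312) and 0.03 (SE 0.10, 95% interval -0.18 to 0.24, limma adjusted p = 0.891).

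Metal handling genes were read from 7 lists, in which 8 of 44 tested probes (18.2%) passed the threshold, against 11.2% of all tested probes. Of the 8, 4 were higher and 4 lower. They include MTF1, a probe of SGK1 and both probes of SLC39A8. The 44 include, beside zinc and copper transporters, copper chaperones, MTF1 and the glucocorticoid and stress genes described below. The median difference of the 44 was 0.03, against -0.0039 over all tested probes. No zinc exporter passed among 9 tested probes of 6 SLC30 genes. Among 14 tested probes of 10 zinc importer genes of the SLC39 family, 1 was higher and 4 were lower.

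The largest fall in the importers was that of SLC39A1, which brings zinc across the plasma membrane. It read 1335, 977 and 1072 units in siLuc and 882, 537 and 725 in siTARDBP, all siTARDBP arrays being lower. The difference was -0.50 (SE 0.10, 1.42-fold lower, limma adjusted p = 0.0045). It lost the threshold when the arrays numbered 2 were left out (adjusted p = 0.0663).

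SLC39A8, an importer of zinc and manganese, fell on both of its probes. The first, ILMN_1695316, read 295, 212 and 245 units in siLuc and 201, 148 and 153 in siTARDBP, with a difference of -0.45 (SE 0.093, limma adjusted p = 0.0040). The second, ILMN_2233539, read 208, 168 and 175 units in siLuc and 151, 110 and 111 in siTARDBP, with a difference of -0.47 (SE 0.097, limma adjusted p = 0.0041). It was above background on 2 of the 3 siTARDBP arrays, which limits the size read for its fall. Groups lay apart on both, and both passed under every alternative in which they were tested.

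SLC39A10, another zinc importer, read 811, 529 and 590 units in siLuc and 560, 332 and 429 in siTARDBP. The arrays numbered 1 were the brightest of their groups, but after normalisation the groups lay apart. The difference was -0.40 (SE 0.11, limma adjusted p = 0.024), and it lost the threshold without siLuc replicate 1, without siLuc replicate 2, without siTARDBP replicate 2 and without both arrays numbered 2 (adjusted p = 0.137). For SLC39A3, 1 of 3 probes passed. That probe, ILMN_1746986, read 122, 92.9 and 95.4 units in siLuc and 154, 126 and 132 in siTARDBP, a difference of 0.43 (SE 0.10, limma adjusted p = 0.013) close to background, and was lost without siLuc replicate 3 and without both arrays numbered 2 (adjusted p = 0.097). The brighter SLC39A3 probes had differences of 0.02 and 0.04.

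**Figure D5:**
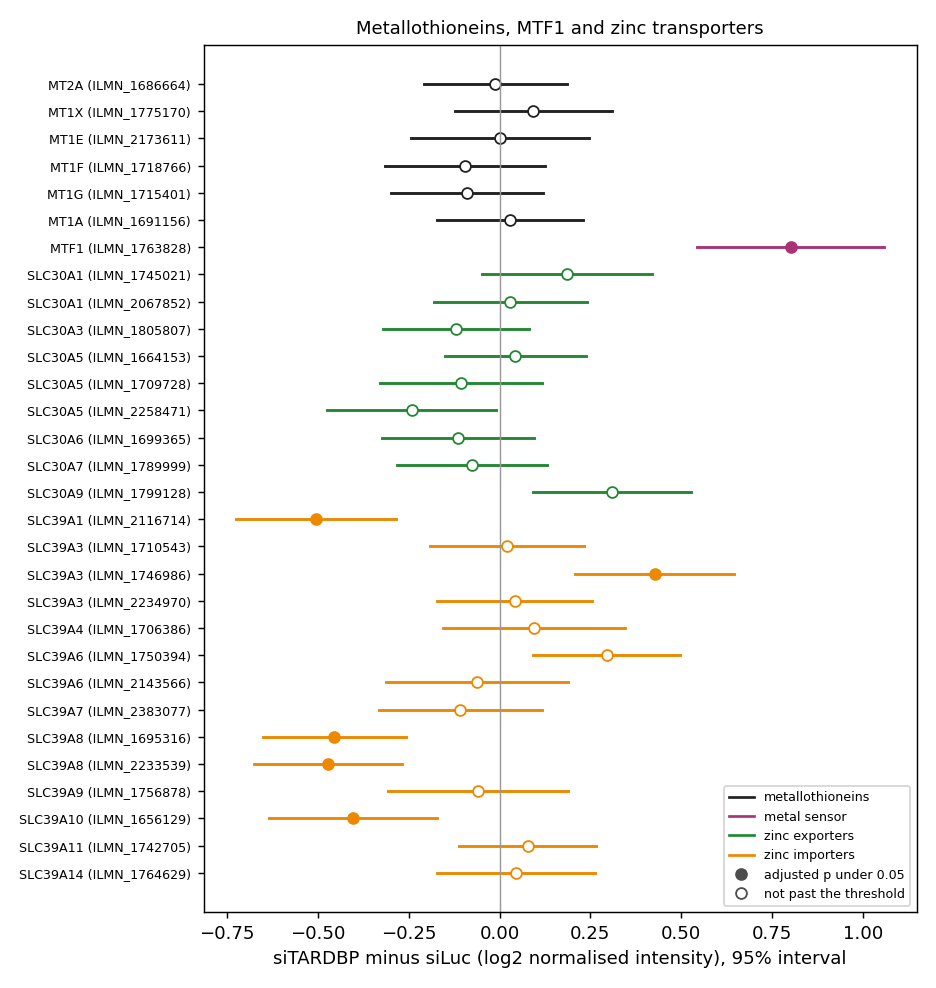
Difference siTARDBP minus siLuc in log2 normalised intensity, with its 95% interval, for the 6 tested metallothionein probes (black), MTF1 (purple), zinc exporters (green) and zinc importers (orange); filled circles passed an adjusted p of 0.05. All metallothionein intervals include 0, MTF1 lies at 0.80, and 4 importer probes lie between -0.50 and -0.40.

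Of the copper genes, 1 of 7 tested probes passed (14.3%), close to the 11.2% of all tested probes. SLC31A1, the high-affinity copper importer, read 267, 205 and 245 units in siLuc and 333, 255 and 266 in siTARDBP, with a difference of 0.35 (SE 0.090, limma adjusted p = 0.019). Its call was lost without siLuc replicate 2, without siTARDBP replicate 3 and without both arrays numbered 2 (adjusted p = 0.124). ATOX1, a copper chaperone, and COX17, which delivers copper to cytochrome oxidase, had differences of -0.08 and -0.18 and did not pass.

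Other inducers of metallothioneins were read from the genes that respond to them. In the glucocorticoid list 1 of 7 tested probes (14.3%, against 11.2% of all tested probes) passed, a probe of the kinase SGK1 (ILMN_3229324), which read 5059, 4259 and 4346 units in siLuc and 6575, 4768 and 4768 in siTARDBP. Its difference was 0.38 (SE 0.098, limma adjusted p = 0.019), the other tested SGK1 probes had differences of 0.14 and 0.28 and did not pass, and the call was lost without siLuc replicate 3, without siTARDBP replicate 1 and without both arrays numbered 2 (adjusted p = 0.0635). FKBP5, a chaperone induced by glucocorticoids, had a difference of 0.05 and the glucocorticoid receptor NR3C1 one of 0.0020. Of the stress proteins that cadmium and heat induce, 0 of 6 probes passed in limma's test, against the same 11.2%. Differences were -0.17 for the heme oxygenase HMOX1, 0.20 for DNAJB1, 0.05 for HSPH1 and -0.13 for BAG3. The near-identical heat shock genes HSPA1A and HSPA1B, which their probes may not tell apart, had 0.07 and 0.0034.

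The genes beside the run were also read, as the 3 nearest on each side with a tested probe that the platform annotation names. BBS2, a component of the ciliary BBSome, had 2 tested probes, of which ILMN_1767612 passed with a difference of 0.41 (SE 0.098, limma adjusted p = 0.012) and the other had 0.29 (adjusted p = 0.0832). OGFOD1, NUDT21, NUP93, CPNE2 and PSME3IP1 did not pass, with differences between -0.15 and 0.32. Among all tested probes 11.2% passed, and the BBS2 call is not read as a feature of this region.

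The probes most like MT2A were sought by the root mean square difference between centred normalised log2 levels over the 6 arrays, as a description with no test. The nearest were ALDH16A1 at 0.021, SCAPER at 0.023, and DDT, MGAT1 and SNRPB at 0.024 each, against a median of 0.14 over all tested probes. All are probes whose level moved little between arrays. The other members were less close, with MT1A at rank 282 of 15200, MT1G at 625, MT1X at 3382, MT1E at 5482 and MT1F at 6999.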

How the data were processed

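Total RNA of 3 siLuc and 3 siTARDBP samples was read on one-colour Illumina HT-12 bead arrays. The authors exported linear probe intensity values, not normalized, from BeadStudio, per the labels' descriptions. The authors' deposited log2 values, with the same median in each column (6.121) and of rank correlation 1 with each own array, served as an alternative. Any background subtraction behind either table is not given in the sources used here. Detection p-values were lacking, and normexp without negative controls (offset 50) and quantile normalisation were applied, followed by limma's lmFit and eBayes (R 4.3.3, limma 3.58.1) on 2 groups with Benjamini-Hochberg adjustment over 15201 probes. The mode of each array's dim peak was mirrored to set its background level. Probes of a gene were not merged. The platform annotation gives 1 symbol for 30113 probes, several for 8 and does not list 17110. The procedure was tested on simulated arrays that lacked the difference in background between the real arrays, and no result here rests on that test. The number of arrays limits the precision.

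The members and the gene lists were chosen with earlier results of these data known. The named probes are all members, TARDBP, up to 4 called probes per list, MTF1, SLC30A1 and the 5 probes most like MT2A. Where values of probes outside these are given, they were chosen after their values were seen, as were the genes beside the run. Deviations from the group mean correlated by 0.11, 0.10 and -0.0019 between arrays numbered 1, 2 and 3, and no pairing was assumed. Alternatives changed the background correction, normalisation, filter, eBayes settings, array weights, threshold, block and arrays included.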

Additional observations from a re-analysis of the deposited data

How the results depend on the processing

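No metallothionein probe passed the threshold under any of the 20 alternatives in limma, where the lowest adjusted p was 0.39 and the log2 differences ran from -0.24 to 0.17. MT1F and MT1G stayed below 0 in all 20, while MT2A was above 0 in 7, MT1X in 19, MT1E in 15 and MT1A in 18. The alternatives of filter, eBayes settings, threshold and block left each difference as in the main setting. Their signs could therefore not change, and the threshold of 0.01 could add no call. MTF1 passed in all 20, between 0.70 and 1.04, and the TARDBP probe in all 19 in which it was tested. With the replicate block, 0 metallothionein probes, 8 of the 44 metal handling probes and 1740 of all tested probes (911 higher, 829 lower) passed. It changed no call among the members, TARDBP, TARDBPP3, MTF1, SLC30A1 and the called probes of the metal handling list. Over all probes, the main count of 1696 (888 higher, 808 lower) became 1016 with 282 higher under median scaling over all probes, 764 (429 higher, 335 lower) at an adjusted p of 0.01 and 832 (460 higher, 372 lower) in the 4 arrays of higher background. The 27.8% share of higher calls under median scaling over all probes compares with 52.4% in the main setting. The median difference over all tested probes was -0.09 under that scaling, against -0.0039 in the main setting. Without a single array the count was 948 to 1777, 509 to 928 higher and 421 to 849 lower, with the lowest totals without siTARDBP replicate 3 (948) and siLuc replicate 2 (954); without siLuc replicate 1, 513 were lower. With 1 array left out, the metal handling list gave 6 to 8 calls of 44 tested probes. The counts of 948 to 1777 over all probes were out of 14551 to 15163 tested. In the 4 arrays of higher background the list gave 3 calls of 43 tested probes, against 832 of all 13789 tested. That alternative was chosen for the list after seeing the data, and has fewer samples. The causes were not tested. The calls of SLC39A3, SLC31A1 and SGK1 were also lost under median scaling over all probes. Signal over background limits the reading of MT1M, which was below it on all arrays. The correction by negative controls was not run for lack of detection p-values, and the low background class alone has 1 array per group and no test.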
